A study of Homo sapiens with 18 samples.

Results

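The lysosomal membrane was examined through 36 genes for its structural proteins, ion channels and transporters, without the proton pump. They were chosen by name for their known place in that membrane, not by their values, but with earlier results of these data known. All 36 matched 1 row each of the 57820 gene rows in the count table. RNA came from MDA-MB-231 cells, an established human line from a breast tumour, triple-negative and mesenchymal in character, in which the study silenced RagC to repress mTORC1. The kinase complex mTORC1 couples growth to nutrients, and the GTPase RagC, the product of RRAGC, helps to hold it on the lysosome. A first siRNA against RagC (siRagC1), a second one (siRagC2) and a control siRNA (siCtrl) were each introduced by lipofection into cells of the same line. The cells were grown in L-15 medium with serum and glutamine and collected after 72 hours. Each group held 6 libraries, numbered as biological replicates by the labels without a statement that they were separate cultures, and p-values therefore describe only the spread among these libraries, which may be technical. Both siRagC groups are knock-downs in 1 cell line, so some RagC mRNA was left, and control cells are labelled wild type.

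The membrane of a lysosome does more than enclose hydrolases. Heavily glycosylated proteins such as LAMP1 and LAMP2 line its inner face, exporters return amino acids, sugars, nucleosides and cholesterol from digested material to the cytosol, and channels set its voltage, its chloride and its calcium release. Some of these genes carry in their promoters the palindromic CLEAR element, bound by TFEB and TFE3, and those found here are counted below. With the help of RagC, mTORC1 phosphorylates these factors at the lysosome and keeps them out of the nucleus.

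The promoter stretches below come from RefSeq (GRCh38.p14; the counts were made on an older build) and show, in capitals, the E-box core CACGTG that lies at the centre of the CLEAR element, in 7 of the genes. They were picked by outcome, after the values were seen. CLCN7, CD63 and ABCB9 hold the core and passed the test described further on. MCOLN1, LAMP1, CLCN6 and CLN3 hold the longer 8-letter form TCACGTGA and did not pass. SLC36A1 and MFSD1 also hold TCACGTGA, did not pass and are not printed. CLN3 missed the threshold on few counts, 588 in all libraries together, at a log2 fold change of 0.55 with siRagC1. Each printed stretch reads 5′ to 3′ on the strand of its gene and ends at most 24 bases past the annotated transcript start.
CLCN7, chr16:1475035-1475090, minus strand: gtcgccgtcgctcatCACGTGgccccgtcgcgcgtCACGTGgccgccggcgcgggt
CD63, chr12:55729169-55729204, minus strand: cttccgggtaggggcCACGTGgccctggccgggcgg
ABCB9, chr12:122975321-122975356, minus strand: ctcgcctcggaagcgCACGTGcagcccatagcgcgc
MCOLN1, chr19:7522568-7522630, plus strand: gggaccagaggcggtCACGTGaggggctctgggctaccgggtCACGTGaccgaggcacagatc
LAMP1, chr13:113297032-113297258, plus strand: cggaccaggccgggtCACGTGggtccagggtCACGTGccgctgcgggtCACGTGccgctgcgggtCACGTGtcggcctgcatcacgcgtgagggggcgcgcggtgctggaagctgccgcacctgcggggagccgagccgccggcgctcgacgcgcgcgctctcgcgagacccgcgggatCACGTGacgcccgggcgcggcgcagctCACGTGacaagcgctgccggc
CLCN6, chr1:11806156-11806214, plus strand: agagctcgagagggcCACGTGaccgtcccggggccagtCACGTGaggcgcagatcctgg
CLN3, chr16:28492055-28492119, minus strand: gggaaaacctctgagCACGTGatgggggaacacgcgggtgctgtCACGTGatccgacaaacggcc
The LAMP1 stretch holds 6 copies of the core and those of CLCN7, MCOLN1, CLCN6 and CLN3 hold 2 each. The full 10-letter CLEAR palindrome, which is the 8-letter form with a G before it and a C after it, stands once in MCOLN1 and in no other of the 34 genes for which RefSeq windows were at hand.

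The shallowest library held 14.8 M counts and the deepest 71.6 M, and group medians were 36.1 M (siRagC1), 24.6 M (siRagC2) and 21.4 M (siCtrl). Their codes form a D1103 set, replicates 1 and 2 of every group, and a D1221 set, replicates 3 to 6. RRAGC, the target, reached 23.9 ± 7.58 CPM with siRagC1 and 27.8 ± 8.30 CPM with siRagC2, against 62.4 ± 2.75 CPM with siCtrl (CPM, counts scaled to library size; mean ± SD, n = 6 each), and no library of either siRNA overlapped the controls. Relative to the same-numbered control, 20.2% to 27.7% of RRAGC was left in D1103 and 38.5% to 52.2% in D1221 with siRagC1, and 28.5% to 35.4% and 35.8% to 65.6% with siRagC2. Mesenchymal genes of the line were high in every library (VIM between 3790 and 5382 CPM), ESR1 and PGR stayed at or under 0.16 CPM and CDH1 at or under 1.60 CPM. EPCAM, also listed as absent, stood at 13.2 to 19.3 CPM. Of the 7 measured markers of other cell types, HBB was at 0 in all 18 libraries, CD3E at 0 in 16, and PTPRC, CD14 and ALB at or under 1.05 CPM. PDGFRB stood between 4.16 and 8.79 CPM, and COL1A1 had medians of 55.7 CPM with siRagC2, 31.7 CPM with siRagC1 and 30.1 CPM with siCtrl. Their part in the results was not tested.

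Per kilobase of transcript, the 36 genes spanned levels from 304 CPM for CD63, a tetraspanin of late endosomes and exosomes, to 0.26 CPM for CLN3, over all 18 libraries. LAPTM4B, a tetraspan protein, was next at 152 CPM per kilobase, followed by LAMP1 at 83.0, MFSD12, the cysteine importer, at 77.6, and LAPTM4A at 59.1. LAMP2, NPC1, SCARB2 and TPCN1 lay between 48.8 and 37.1 CPM per kilobase. In the controls, 28 of the 35 neighbouring pairs in this order had overlapping libraries. The order was separated below CD63, below LAPTM4B, between LAPTM4A and LAMP2, above and below MFSD1, and around SPNS1. CLN3, with 588 counts in all libraries together, and SPNS1, with 704, rested on few counts. Of their exonic bases 30.9% and 62.7% are shared with overlapping genes in GENCODE 29, so their values are uncertain. LAPTM4B and MFSD1 have annotated pseudogenes that could take part of their reads.

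**Figure D1:**
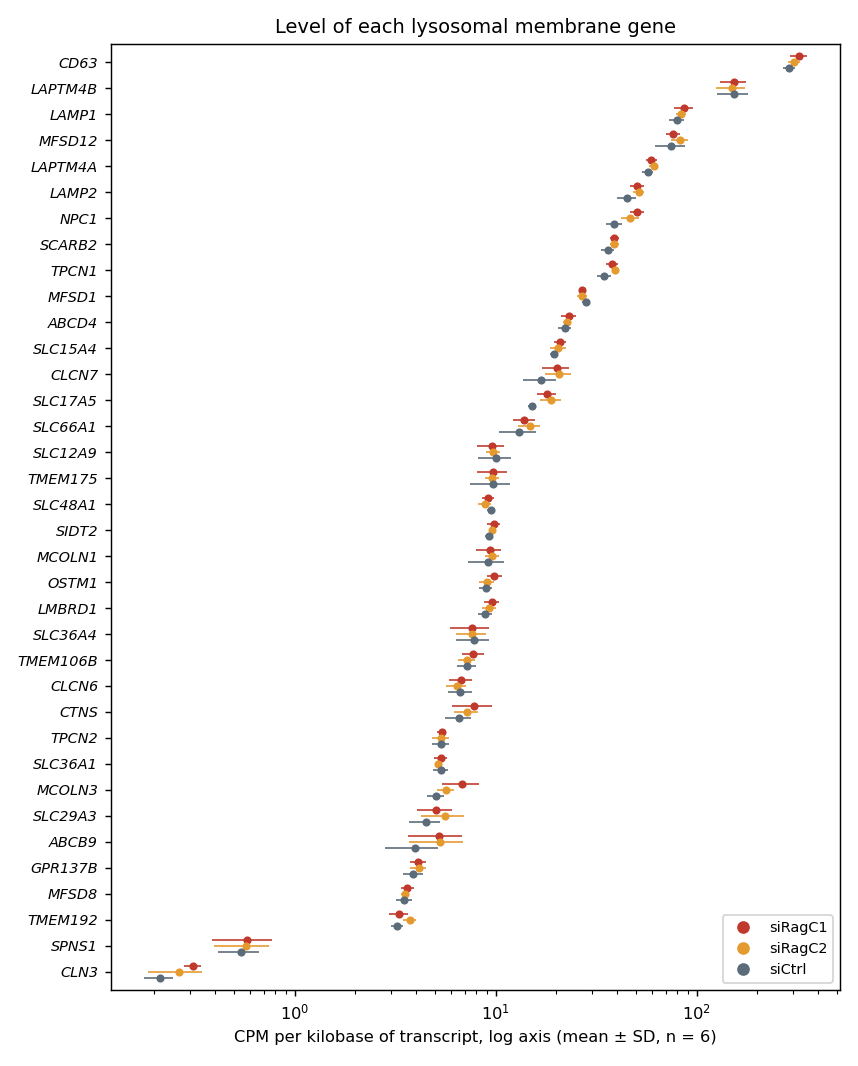
Level of each of the 36 genes in CPM per kilobase of transcript on a log axis, as mean ± SD of 6 libraries for siRagC1, siRagC2 and siCtrl. CD63 stands highest and CLN3 lowest, and for most genes the 3 groups lie close together on this scale.

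All 36 genes had enough counts to be tested, and all that passed were higher with RagC silenced. With siRagC1, 5 rose (NPC1, ABCB9, SLC17A5, CD63 and MCOLN3), where 1.41% of all 15307 tested genes rose at an adjusted p under 0.05 in edgeR. With siRagC2, 6 rose (SLC17A5, ABCB9, NPC1, LAMP2, CLCN7 and TPCN1), where 1.87% of all genes did. NPC1, ABCB9 and SLC17A5 rose with both siRNAs, as did 0.771% of all genes. The 2 comparisons share the 6 control libraries. No gene of the 36 fell, where 0.627% of all genes fell with siRagC1 and 1.36% with siRagC2. In DESeq2 0 fell, where 2.21% and 3.37% of all genes did, and in limma-voom 0, where 0.738% and 1.45% did. At an unadjusted p under 0.05 in edgeR 0 fell as well, a level that 17.1% and 18.5% of all genes reached in either direction. The other 28 passed with neither siRNA.

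The log2 fold change was positive for 31 of the 36 with siRagC1 and for 28 with siRagC2, against 51.7% of all genes in each comparison. The median was 0.09 with siRagC1 and 0.08 with siRagC2, against 0.01 and 0.00 over all genes. At an unadjusted p under 0.05 stood 14 of the 36 with siRagC1 and 13 with siRagC2, where 17.1% and 18.5% of all genes did. Summed over the 36 genes, the libraries held 2841 ± 90.9 CPM with siRagC1 and 2803 ± 70.5 CPM with siRagC2, against 2595 ± 35.9 CPM with siCtrl (SD, n = 6 each). In these bulk libraries, fewer cells of a type and less RNA per cell cannot be told apart.

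**Figure D2:**
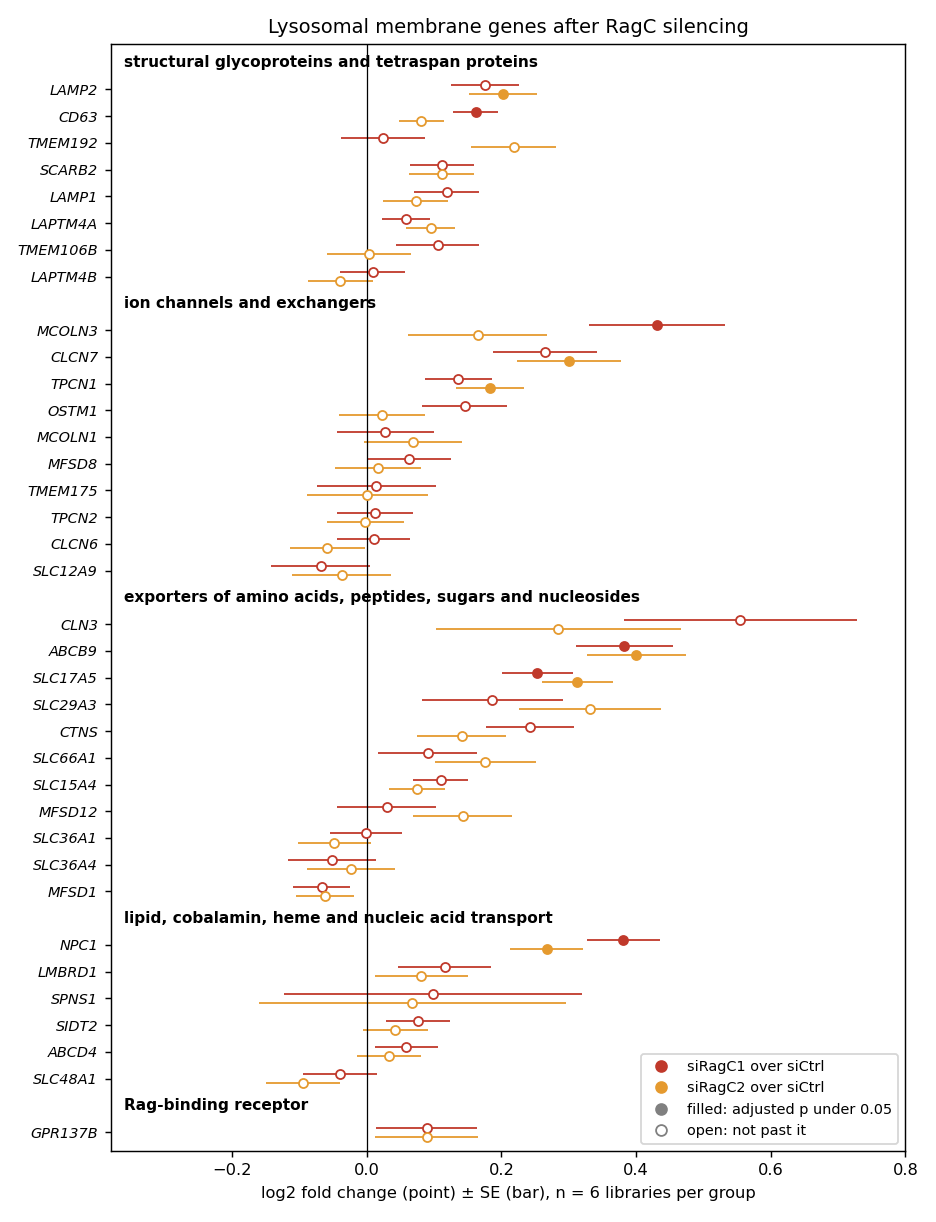
Log2 fold change ± SE over siCtrl for the 36 genes, grouped by role, with siRagC1 above siRagC2 in each row and filled points at an adjusted p under 0.05 (n = 6 libraries per group). Most points lie right of 0 and none of the points to its left is filled.

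Among the 8 structural glycoproteins and tetraspan proteins, 1 rose with each siRNA and none fell (median log2 fold change 0.11 with siRagC1 and 0.09 with siRagC2). Of all genes, 1.41% and 1.87% rose, and 0.627% and 1.36% fell. CD63 had a lowest, median and highest library of 353, 385 and 455 CPM with siRagC1 and of 349, 365 and 408 CPM with siRagC2, against 326, 347 and 387 CPM with siCtrl. The D1103 libraries were the highest of each group, and the ranges overlapped, although within each set every siRagC1 library stood above every control. CD63 rose by 0.16 ± 0.03 (SE) on the log2 scale with siRagC1 (edgeR, adjusted p = 0.0155) and stood at 0.08 ± 0.03 with siRagC2 (adjusted p = 0.191).

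LAMP2, which also carries substrates of chaperone-mediated autophagy in one of its isoforms, had a lowest, median and highest library of 185, 199 and 231 CPM with siRagC1 and of 191, 206 and 225 CPM with siRagC2, against 153, 187 and 202 CPM with siCtrl. The 2 lowest libraries were controls of D1103, and the upper controls reached into both siRagC groups. LAMP2 rose with siRagC2 by 0.20 ± 0.05 (edgeR, adjusted p = 0.0287), with all 6 same-numbered pairs higher, and stood at 0.18 ± 0.05 with siRagC1 (adjusted p = 0.0667). With same-numbered pairs blocked, the siRagC1 change was 0.17 ± 0.04 and passed (edgeR, adjusted p = 0.0273). That fit called 3.29% of all genes higher with siRagC1. The counts are per gene, so its isoforms were not told apart.

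LAMP1, the other main glycoprotein of the membrane, stood at 233 ± 25.5 CPM with siRagC1 and 225 ± 12.4 CPM with siRagC2, against 214 ± 18.01 CPM with siCtrl, and its changes of 0.12 ± 0.05 and 0.07 ± 0.05 did not pass (edgeR, adjusted p = 0.204 and 0.470). SCARB2, the receptor that brings glucocerebrosidase to the lysosome, stood at 186 ± 9.63 CPM with siRagC1 and 186 ± 9.20 CPM with siRagC2, against 172 ± 13.7 CPM with siCtrl. Its change was 0.11 ± 0.05 with each siRNA (adjusted p = 0.228 and 0.211). TMEM192, a membrane protein often tagged to purify lysosomes, stood at 0.02 ± 0.06 with siRagC1 and 0.22 ± 0.06 with siRagC2 (adjusted p = 0.886 and 0.0584). LAPTM4A, LAPTM4B and TMEM106B, a lysosomal glycoprotein linked to frontotemporal dementia, lay between -0.04 and 0.11.

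Of the 10 ion channels and exchangers, 1 rose with siRagC1 and 2 with siRagC2, where 1.41% and 1.87% of all genes did. The median changes were 0.05 and 0.02. MCOLN3, a calcium-permeable mucolipin channel of endosomes and lysosomes, had a lowest, median and highest library of 14.7, 17.96 and 25.7 CPM with siRagC1 and of 13.5, 15.5 and 18.2 CPM with siRagC2, against 12.7, 13.5 and 16.4 CPM with siCtrl. The 2 highest libraries were the siRagC1 ones of D1103, while the D1221 libraries of siRagC1 (14.7 to 18.7 CPM) overlapped their controls (13.1 to 16.4 CPM). MCOLN3 rose by 0.43 ± 0.10 with siRagC1 (edgeR, adjusted p = 0.0300) and stood at 0.16 ± 0.10 with siRagC2 (adjusted p = 0.428).

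CLCN7, the chloride-proton exchanger whose loss causes osteopetrosis, had a lowest, median and highest library of 79.7, 91.6 and 115 CPM with siRagC1 and of 84.6, 92.0 and 123 CPM with siRagC2, against 53.6, 82.7 and 93.6 CPM with siCtrl. The lowest value was that of siCtrl replicate 6. The groups overlapped, but within each set every siRagC2 library stood above every control. CLCN7 rose by 0.30 ± 0.08 with siRagC2 (edgeR, adjusted p = 0.0364) and stood at 0.26 ± 0.08 with siRagC1 (adjusted p = 0.0746). Its siRagC1 change passed with same-numbered pairs blocked, at 0.27 ± 0.07 (edgeR, adjusted p = 0.0274), where 3.29% of all genes were called higher.

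TPCN1, a sodium and calcium channel gated by phosphoinositides and NAADP, had a lowest, median and highest library of 185, 197 and 218 CPM with siRagC1 and of 195, 205 and 214 CPM with siRagC2, against 168, 177 and 204 CPM with siCtrl. Every library of either siRNA was above the control median, but the upper controls reached into both groups. TPCN1 rose by 0.18 ± 0.05 with siRagC2 (edgeR, adjusted p = 0.0474) and stood at 0.14 ± 0.05 with siRagC1 (adjusted p = 0.157). Its relative TPCN2 stood at 0.01 ± 0.06 with siRagC1 and 0.00 ± 0.06 with siRagC2.

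MCOLN1, the best known lysosomal calcium release channel, stood at 19.3 ± 2.76 CPM with siRagC1 and 19.9 ± 1.60 CPM with siRagC2, against 19.02 ± 3.898 CPM with siCtrl. Its changes of 0.03 ± 0.07 and 0.07 ± 0.07 did not pass (edgeR, adjusted p = 0.890 and 0.685), and the 95% intervals ran from -0.12 to 0.18 and from -0.08 to 0.22. OSTM1, the subunit that stabilises CLCN7, stood at 0.15 ± 0.06 and 0.02 ± 0.06. CLCN6, TMEM175, a proton and potassium channel, MFSD8, a chloride channel mutated in a ceroid lipofuscinosis, and SLC12A9, of the cation-chloride cotransporter family, lay between -0.07 and 0.06.

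Of the 11 genes grouped as carriers of amino acids, peptides, sugars and nucleosides, 2 rose with each siRNA, with median changes of 0.11 and 0.14. The shares of all genes that rose were 1.41% with siRagC1 and 1.87% with siRagC2. ABCB9, which pumps peptides from the cytosol into the lysosome, had a lowest, median and highest library of 22.1, 27.0 and 44.3 CPM with siRagC1 and of 25.3, 26.4 and 48.0 CPM with siRagC2, against 15.3, 22.1 and 32.9 CPM with siCtrl. The D1103 libraries were well above the D1221 libraries in every group, so the pooled ranges overlapped. Within D1103 it held 42.6 to 44.3 CPM with siRagC1 and 39.6 to 48.0 CPM with siRagC2, against 32.3 to 32.9 CPM with siCtrl, and within D1221 22.1 to 27.3 and 25.3 to 26.7 CPM against 15.3 to 22.1 CPM. In both sets every library of each siRNA was above every control. ABCB9 rose by 0.38 ± 0.07 with siRagC1 (edgeR, adjusted p = 0.00881) and by 0.40 ± 0.07 with siRagC2 (adjusted p = 0.00525). Of its exonic bases 24.5% overlap genes on the other strand, and OGFOD2 and ARL6IP4, the 2 of these that were tested, did not pass in either comparison.

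SLC17A5, or sialin, which exports sialic acid and is mutated in Salla disease, had a lowest, median and highest library of 54.8, 61.5 and 70.6 CPM with siRagC1 and of 55.7, 63.7 and 74.1 CPM with siRagC2, against 48.9, 51.7 and 56.0 CPM with siCtrl. The highest control, replicate 1, reached into the lower end of both siRagC groups, and within each set all siRagC1 and siRagC2 libraries were above all controls. SLC17A5 rose by 0.25 ± 0.05 with siRagC1 (edgeR, adjusted p = 0.0160) and by 0.31 ± 0.05 with siRagC2 (adjusted p = 0.00336).

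CTNS, the cystine exporter lost in cystinosis, stood at 0.24 ± 0.07 with siRagC1 and 0.14 ± 0.07 with siRagC2 (edgeR, adjusted p = 0.0570 and 0.259). Its siRagC1 change passed with same-numbered pairs blocked, at 0.24 ± 0.06 (edgeR, adjusted p = 0.0354), where 3.29% of all genes were called higher. SLC29A3, a nucleoside transporter, stood at 0.19 ± 0.10 and 0.33 ± 0.11 (adjusted p = 0.380 and 0.0863). With pairs of the same number blocked, the siRagC2 change of SLC29A3 was 0.32 ± 0.07 and passed (adjusted p = 0.00809). CLN3, the protein lost in Batten disease, had 1.05, 1.22 and 1.32 CPM in its lowest, median and highest siRagC1 library and 0.798, 0.934 and 1.60 CPM with siRagC2, against 0.659, 0.845 and 0.993 CPM with siCtrl. All 6 siRagC1 libraries were above all 6 controls, but its changes of 0.55 ± 0.17 and 0.28 ± 0.18 did not pass (adjusted p = 0.0946 and 0.442).

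SLC15A4, a transporter of histidine and peptides, and SLC66A1, an exporter of lysine and arginine, lay between 0.07 and 0.18 with either siRNA. MFSD12 stood at 0.03 ± 0.07 and 0.14 ± 0.07. The proton-coupled amino acid carriers SLC36A1 and SLC36A4 and the dipeptide exporter MFSD1 lay between -0.07 and 0.00 in both comparisons. None of these passed the test.

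Among the 6 genes for lipid, cobalamin, heme and nucleic acid transport, NPC1 rose with both siRNAs, as did 0.771% of all genes. The other 5 passed with neither. NPC1, which moves cholesterol out of the lysosome and is lost in Niemann-Pick disease type C, had a lowest, median and highest library of 237, 260 and 285 CPM with siRagC1 and of 207, 240 and 270 CPM with siRagC2, against 168, 208 and 214 CPM with siCtrl. With siRagC1 no library overlapped the controls. With siRagC2 the lowest library, replicate 2, lay within the control range. NPC1 rose 1.302-fold with siRagC1 (log2 0.38 ± 0.05; edgeR, adjusted p = 0.000923) and 1.203-fold with siRagC2 (0.27 ± 0.05; adjusted p = 0.0104). All 6 same-numbered pairs were higher with each siRNA. RMC1, which covers 5.98% of the exonic bases of NPC1 on the other strand, stood at -0.07 ± 0.04 and 0.01 ± 0.04 and did not pass.

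LMBRD1 and ABCD4, which together release cobalamin from the lysosome, lay between 0.03 and 0.12. SLC48A1, a heme transporter, stood at -0.04 ± 0.05 and -0.09 ± 0.06. SIDT2, which takes nucleic acids into lysosomes, and SPNS1, an exporter of lysophospholipids, lay between 0.04 and 0.10. GPR137B, a receptor-like membrane protein that binds Rag GTPases, stood at 8.40 ± 0.75 CPM with siRagC1 and 8.44 ± 0.77 CPM with siRagC2, against 7.91 ± 0.89 CPM with siCtrl, and its change of 0.09 ± 0.08 with each siRNA did not pass (edgeR, adjusted p = 0.586 and 0.6001).

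**Figure D3:**
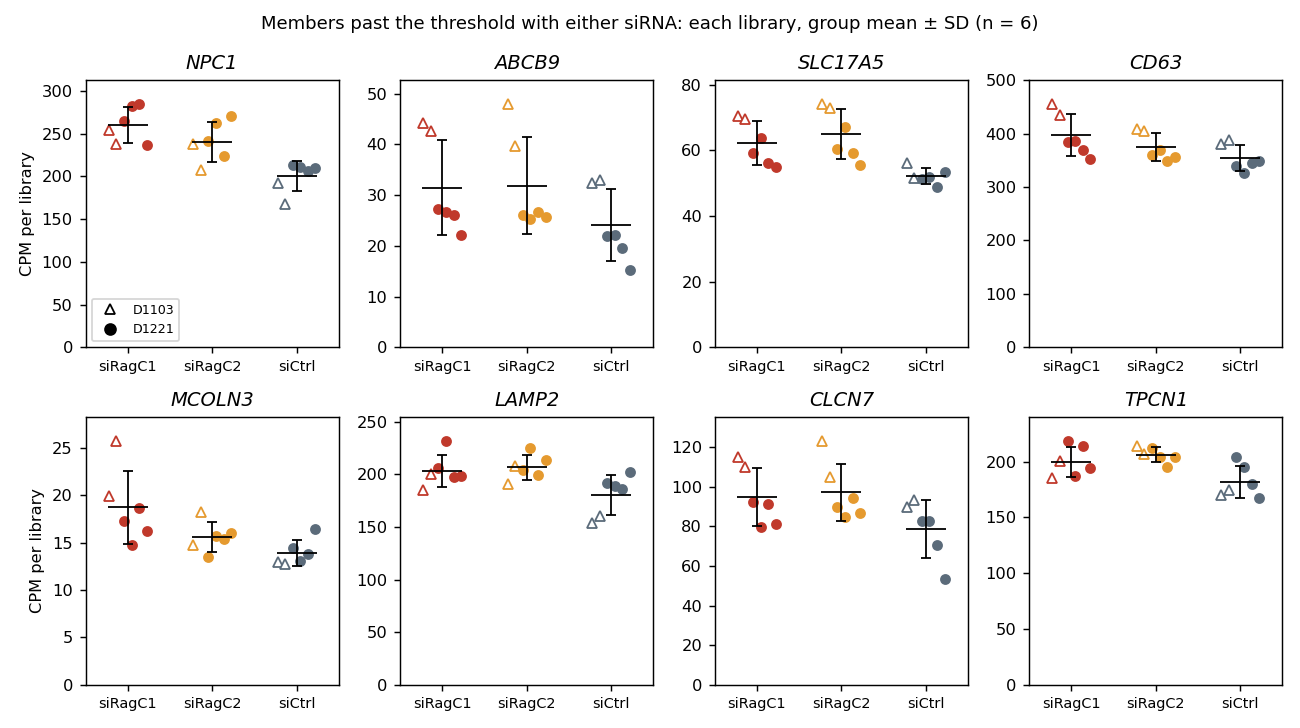
CPM in each of the 18 libraries for the 8 genes that rose with either siRNA, with group mean ± SD (n = 6); open triangles are D1103 and filled circles D1221. NPC1 with siRagC1 (237 to 285 CPM) is the only panel group without overlap with siCtrl (168 to 214 CPM), and ABCB9 shows the gap between the 2 sets.

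Over the whole design, 2 of the 36 genes, NPC1 and CLN3, had all siRagC1 libraries above all controls, where 0.516% of all genes did, and 0 did so with siRagC2, where 0.601% of all genes did. None was entirely below the controls (0.314% and 0.542% of all genes). When each library was set against the controls of its own set only, 6 genes were separated upward in both sets with siRagC1 (ABCB9, CD63, CLN3, NPC1, SLC15A4 and SLC17A5; 1.40% of all genes). With siRagC2 these were 4 (ABCB9, CLCN7, NPC1 and SLC17A5; 1.90% of all genes). None was separated downward in this way (1.00% of all genes with siRagC1 and 1.92% with siRagC2). Set against the same-numbered control, 8 genes were higher in all 6 pairs with siRagC1 and 9 with siRagC2, where 7.15% and 6.34% of all genes were. None was lower in all 6 pairs, where 7.17% of all genes were with siRagC1 and 6.11% with siRagC2.

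**Figure D4:**
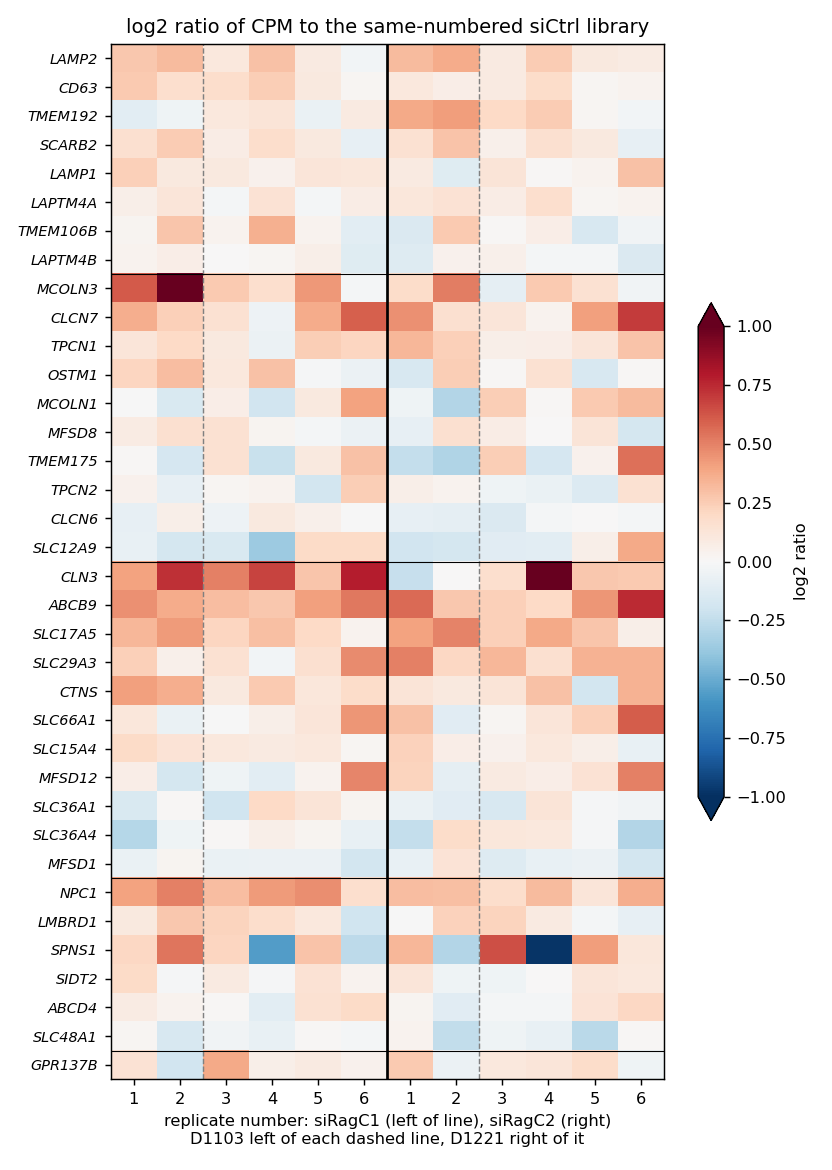
Log2 ratio of CPM in each siRagC1 library (left block) and siRagC2 library (right block) to the same-numbered siCtrl library, for the 36 genes grouped by role. NPC1, ABCB9 and SLC17A5 are above 0 in all 12 columns, and SPNS1 and CLN3, genes of low count, range widely.

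Between the 2 siRNAs, edgeR called 0 of the 36 genes and 0.0% of all genes, and DESeq2 and limma-voom also called 0 of the 36. At an unadjusted p under 0.05 stood 4 of the 36 (CD63, TMEM192, MCOLN3 and NPC1), where 7.75% of all genes did. The difference of siRagC1 over siRagC2 was 0.27 ± 0.10 for MCOLN3, 0.11 ± 0.05 for NPC1, 0.08 ± 0.03 for CD63 and -0.19 ± 0.06 for TMEM192 (adjusted p = 0.507, 0.632, 0.580 and 0.399). For ABCB9 it was -0.02, with a 95% interval from -0.17 to 0.13, and for SLC17A5 -0.06, from -0.17 to 0.05.

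The 8 genes that rose had positive log2 fold changes in both sets of libraries. Of the 36, 24 were positive in D1103 and 31 in D1221 with siRagC1, against 50.6% and 52.5% of all genes, and 24 and 28 with siRagC2, against 49.9% and 51.0%. With siRagC1, NPC1 stood at 0.45 ± 0.10 in D1103 (n = 2 per group) and 0.35 ± 0.07 in D1221 (n = 4 per group), ABCB9 at 0.41 ± 0.13 and 0.37 ± 0.10, and SLC17A5 at 0.38 ± 0.08 and 0.19 ± 0.06. With siRagC2, these were 0.31 ± 0.10 and 0.25 ± 0.07 for NPC1, 0.42 ± 0.13 and 0.39 ± 0.10 for ABCB9, and 0.45 ± 0.08 and 0.24 ± 0.06 for SLC17A5. The values of ABCB9 lay within 1 SE of each other between the sets, and those of SLC17A5 were larger in D1103. For SLC17A5 the difference between the sets did not reach an unadjusted p under 0.05 in edgeR with either siRNA.

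LAMP2 stood at 0.35 ± 0.08 in D1103 and 0.13 ± 0.06 in D1221 with siRagC2, CLCN7 at 0.31 ± 0.14 and 0.29 ± 0.10, and TPCN1 at 0.29 ± 0.09 and 0.13 ± 0.06. With siRagC1, CD63 stood at 0.21 ± 0.06 and 0.14 ± 0.04. MCOLN3 stood at 0.82 ± 0.14 in D1103 and 0.21 ± 0.10 in D1221 with siRagC1, a difference of -0.61 ± 0.17 (edgeR, unadjusted p = 0.00200, adjusted p = 1.00). No difference between the sets passed for any of the 36, as for 0.0% of all genes with either siRNA. At an unadjusted p under 0.05 the difference stood for MCOLN3 with siRagC1 and for LAMP2, MCOLN1, TMEM175 and TMEM192 with siRagC2, where 2.03% and 6.66% of all genes did. Whether the amount of RRAGC left accounts for these differences was not tested.

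**Figure D5:**
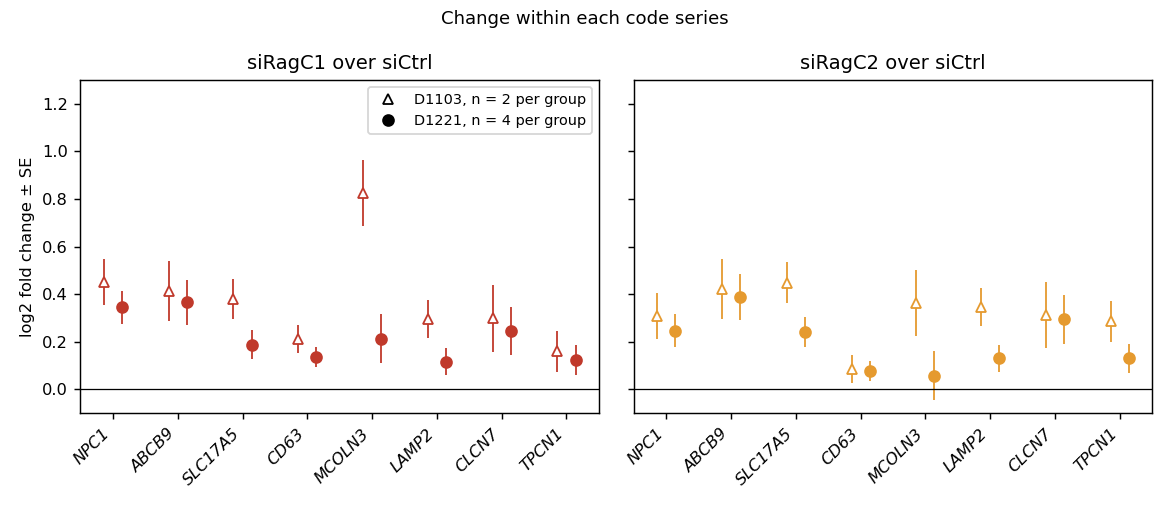
Log2 fold change ± SE over siCtrl within D1103 (open triangles, n = 2 per group) and D1221 (filled circles, n = 4 per group) for the 8 genes that rose with either siRNA, siRagC1 left and siRagC2 right. Every point lies above 0, and MCOLN3 with siRagC1 shows the widest gap, 0.82 against 0.21.

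Fitted on D1221 alone, edgeR called 0 of the 36 genes with either siRNA, where 0.0% of all genes were called higher with siRagC1 and 0.00666% with siRagC2. There 7 and 10 of the 36 stood at an unadjusted p under 0.05, as did 6.64% and 9.46% of all genes. On D1103 alone it called 7 of the 36 as higher with siRagC1 and 8 with siRagC2, where 2.12% and 3.82% of all genes were. Without a term for the set, 0 of the 36 passed with either siRNA, but only 0.0392% and 0.0784% of all genes were then called higher. In that fit 8 and 7 of the 36 stood at an unadjusted p under 0.05, as did 9.88% and 10.8% of all genes. The calls for NPC1 and ABCB9, and that for SLC17A5 with siRagC2, held when any 1 of the 18 libraries was left out. They did not all hold when a replicate number was left out of all 3 groups at once. Without replicate 1, where 0.206% of all genes were called higher with siRagC2, all 3 genes missed the threshold with that siRNA (edgeR, adjusted p = 0.0575 for NPC1, 0.0672 for ABCB9 and 0.0530 for SLC17A5). ABCB9 with siRagC1 missed it without replicate 1, 2 or 5 (0.0589 to 0.0873), while NPC1 with siRagC1 passed whichever number was left out. SLC17A5 and MCOLN3 with siRagC1 missed it without replicate 1, 2, 3 or 5, and CD63 without replicate 1, 2, 3, 4 or 5. The fits without 1 of these numbers called 0.206% to 0.661% of all genes higher with siRagC1. Of single libraries, SLC17A5 with siRagC1 missed the threshold without siRagC1 replicate 2 or siCtrl replicate 1 or 2 (edgeR, adjusted p between 0.0519 and 0.0546), and CD63 without siRagC1 replicate 1 or siCtrl replicate 1 (0.0519 each). MCOLN3 with siRagC1 missed it without siRagC1 replicate 1, 2, 3 or 5 or siCtrl replicate 1, 2, 4 or 5 (0.0514 to 0.102).

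The other siRagC2 calls each depended on several libraries. LAMP2 missed the threshold without siRagC2 replicate 1, 2 or 4 or siCtrl replicate 1, 2 or 5 (edgeR, adjusted p between 0.0549 and 0.0938), and CLCN7 without siRagC2 replicate 1, 3, 4 or 5 or siCtrl replicate 1, 2 or 5 (0.0610 to 0.112). TPCN1 missed it without any of 12 libraries (0.0524 to 0.138), namely siRagC1 replicates 1, 2 and 5, siRagC2 replicates 1, 2, 3, 4 and 6, and siCtrl replicates 1, 2, 5 and 6. The log2 fold change of the 3 genes stayed between 0.16 and 0.34 in all of these fits.

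Other genes of the lysosome were counted in the same fit, where 1.41% of all genes rose with siRagC1 and 1.87% with siRagC2. The shares that fell were 0.627% and 1.36%. Of 31 tested genes for other lysosomal membrane proteins, 2 rose with siRagC1 and 5 with siRagC2, none fell, and the medians were 0.07 and 0.08. GLMP, the subunit that protects MFSD1, rose by 0.27 ± 0.04 and 0.19 ± 0.04 (edgeR, adjusted p = 0.00175 and 0.0160), while MFSD1 itself stood at -0.07 ± 0.04 and -0.06 ± 0.04. P2RX4, an ATP-gated channel, rose by 0.44 ± 0.10 and 0.40 ± 0.10 (adjusted p = 0.0206 and 0.0251), and LITAF, CYB561A3 and TMEM9 rose with siRagC2 by 0.19 each.

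The same count was made for the lumenal side and for 2 further lists. It stands beside the same shares of all genes, 1.41% and 1.87% higher and 0.627% and 1.36% lower. Of 46 tested genes for lumenal enzymes and their cofactors, 19 rose with siRagC1 and 19 with siRagC2, 0 and 1 fell, and the median was 0.17 in both. From these, NPC2 and NEU1 were chosen after their values were seen, for their link to NPC1 and SLC17A5. NPC2, the lumenal partner that hands cholesterol to NPC1, rose by 0.36 ± 0.07 and 0.28 ± 0.07 (edgeR, adjusted p = 0.00739 and 0.0259). NEU1, the sialidase that frees the sialic acid exported by SLC17A5, rose by 0.33 ± 0.07 and 0.38 ± 0.07 (adjusted p = 0.0124 and 0.00411). OSTM1, the subunit of CLCN7, passed with neither siRNA. Whether partner genes changed together was not tested. Of 20 tested proton pump subunits, 1 rose with each siRNA, ATP6V0D2, and ATP6V0A2 fell with siRagC2. Of 37 membrane proteins of the ER, Golgi, mitochondria and endosomes, 2 rose with siRagC1 (ITPR3 and IGF2R) and 4 fell with siRagC2 (VDAC1, SLC25A5, SLC25A3 and SSR3), with medians of -0.03 and -0.01. Differences between these lists were not tested.

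In windows from 250 bases before to 50 after the annotated start, CACGTG was present in 11 of the 34 genes of the lysosomal membrane with a window (32.4%), against 8.77% of 27305 genes. These 27305 are all genes with a window, tested or not. A gene counted when any of its windows held the motif. The 34 genes had 51 windows and the 27305 had 35116, so the chances of a match per gene were not equal. TCACGTGA was present in 6 of them (17.6%), against 1.18%, and the 10-letter palindrome in 1 (2.94%), against 0.421%. The motifs are palindromes, so 1 scan reads both strands, and each shorter one lies within the longer. LAMP2 and LAPTM4B had no window and were not searched.

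Of the 7 genes that passed with either siRNA and had a window, 3 held CACGTG (CLCN7, CD63 and ABCB9, printed above) and 0 held TCACGTGA. Of the 27305 genes with a window, 8.77% and 1.18% did. So small a number of genes cannot tell 0 from a share of 1.18%. LAMP2 also rose but had no window. Of the other 27, 8 held CACGTG and 6 held TCACGTGA. The 6 genes with TCACGTGA (LAMP1, MCOLN1, CLCN6, SLC36A1, MFSD1 and CLN3) had a median log2 fold change of 0.02 with siRagC1 (range -0.07 to 0.55) and 0.01 with siRagC2 (-0.06 to 0.28). The 5 with CACGTG only had medians of 0.16 (-0.07 to 0.38) and 0.08 (-0.04 to 0.40). The 23 with neither, NPC1, SLC17A5, MCOLN3 and TPCN1 among them, had 0.09 (-0.05 to 0.43) and 0.09 (-0.09 to 0.33). The ranges overlapped, and differences between these classes were not tested. A match describes letters in this window and is no measure of binding.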

How the data were processed

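Total RNA (500 ng per library) of siRNA-treated MDA-MB-231 cells was sequenced in 18 libraries. Raw gene counts were deposited by the authors as a single table of 57820 Ensembl rows. Per the submitters' processing notes, cutadapt 0.6.2 and STAR 2.7.6a were used on GRCh37/hg19; the sources used here do not give the counting tool, strand setting or annotation, so reads of overlapping genes may be shared or lost. What the code series D1103 and D1221 stand for is not stated either.

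Symbols came from a gene name table (51996 rows matched). In R 4.3.3, edgeR 4.0.16 (filterByExpr by group, TMM factors, quasi-likelihood F test with robust dispersion) was fitted to all 18 libraries with terms for code series and group, leaving 15307 genes, with Benjamini-Hochberg adjustment over all of them and a threshold of 0.05. CPM used TMM-scaled library sizes. Levels per kilobase used the length of the principal transcript of GENCODE 29, on GRCh38, another build than that of the counts. Promoter windows were those of RefSeq. The 36 genes, their roles, the context lists and the tests were chosen with earlier results of these data known. By rule, all 36 are accounted for, those past the threshold and the 6 with the highest CPM are given by group, and other genes are named as the target, as cell type markers, as genes overlapping a gene of the 36, or as context genes past the threshold (NPC2 and NEU1 were chosen after their values were seen, for their link to NPC1 and SLC17A5, as were the genes whose promoters are printed). TIMM23 and PECAM1 were not matched.

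Replicates of a group differed by 2.88 to 81.6 times the counting variance, so none was a duplicate, and the spread between libraries exceeded counting error. Same-numbered libraries had correlated deviations over all genes, from 0.0765 to 0.610 for siRagC1 with siCtrl, 0.116 to 0.492 for siRagC2 with siCtrl and 0.221 to 0.582 for siRagC1 with siRagC2. The last 2 pairings passed the minimum of 0.1; the fit itself was made without a block, and blocked values are given where they change a call; with the code series removed, correlations ran from -0.144 to 0.302. Alternatives were RLE factors, no filter, limma-voom (limma 3.58.1), DESeq2 1.42.0, at least 5 CPM in 6 libraries, a replicate block, no series term, the compared groups alone, each series alone, a threshold of 0.01, and each replicate number or library left out. The procedure was tested on simulated data. Tables and figures were made in Python 3.11.15.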

Additional observations from a re-analysis of the deposited data

Results flagged for a closer look

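Of 108 groups of 6 libraries (36 genes in 3 groups), 10 held a library far from the others by Dixon's criterion, and chance flags about 1 in 20 groups. With siRagC1, replicate 4 stood at 204 CPM for SCARB2 (the others 178 to 187) and at 120 CPM for TMEM106B (87.5 to 96.8), and replicate 5 at 15.4 CPM for MFSD8 (18.03 to 18.9). SLC29A3 was high in replicate 1 of both siRagC groups, at 15.6 CPM with siRagC1 (9.49 to 11.6) and 18.7 CPM with siRagC2 (10.6 to 12.6). With siRagC2, replicate 4 stood at 15.2 CPM for TMEM175 (17.8 to 19.0003) and 1.60 CPM for CLN3 (0.798 to 1.07), and replicate 5 at 17.7 CPM for LMBRD1 (20.8 to 22.5). In the controls, replicate 2 stood at 34.1 CPM for OSTM1 (40.1 to 42.3) and 9.68 CPM for GPR137B (7.199 to 7.80). None of these genes passed the test in the fit of all 18 libraries.

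MCOLN1 had values of opposite sign in the 2 code series with siRagC2, -0.17 ± 0.11 in D1103 and 0.21 ± 0.08 in D1221 on the log2 scale (SE). The difference of 0.38 had an unadjusted p of 0.0105 and an adjusted p of 0.735 in edgeR.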

How the results depend on the processing

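The counts of genes that rose were 5 with siRagC1 (1.41%), 6 with siRagC2 (1.87%) and 3 with both (0.771%). Percentages in brackets give the share of all tested genes called higher. With siRagC1 they became 8 with no filter (1.92%), DESeq2 (2.87%) or the replicate block (3.29%), and 7 on D1103 alone (2.12%). They became 6 with limma-voom (1.47%) or the 5 CPM filter (2.1%) and 3 with the compared groups alone (0.665%). At a threshold of 0.01 they became 2 (0.301%), and with no series term (0.0392%) or on D1221 alone (0.0%) they became 0. With siRagC2 they became 8 with no filter (1.76%), DESeq2 (3.19%) or D1103 alone (3.82%), and 7 with the block (3.66%) or the 5 CPM filter (2.7%). They became 4 with the compared groups alone (1.37%), 2 at 0.01 (0.412%) and 0 with no series term (0.0784%) or on D1221 alone (0.00666%). For both siRNAs they became 5 with no filter, DESeq2, the block or D1103 alone, 1 at 0.01, and 0 with no series term or on D1221 alone. Between the siRNAs 1 gene was called with no filter and 1 on D1103 alone. Shares of all genes called with both siRNAs, or between them, are not at hand for the alternatives. Those counts, here and below, therefore stand without a background and cannot be read as a result about the 36 genes. Without 1 replicate number, the ranges were 1 to 9 with siRagC1, 0 to 8 with siRagC2, 0 to 6 for both and 0 to 2 between the siRNAs. Of all genes, 0.206% to 4.15% were then called higher with siRagC1 and 0.206% to 3.48% with siRagC2. Without 1 library the ranges of the 36 were 2 to 8, 3 to 6, 2 to 5 and 0 to 0. Of all genes, 0.434% to 3.43% were then called higher with siRagC1 and 0.804% to 2.4% with siRagC2. The siRagC1 count was 3 without siRagC1 replicate 1 or 2 or siCtrl replicate 2, 2 without siCtrl replicate 1, and 8 without siRagC1 replicate 6, which also took the count for both to 5. The siRagC2 count was 3 without siRagC2 replicate 1 or 4 or siCtrl replicate 1, 2 or 5. No gene of the 36 fell in any of the 35 alternatives, and none of the 11 calls changed sign. Of the 61 values that did not pass, 24 changed sign under at least 1 alternative; on D1103 alone with siRagC2, TMEM175 was at -0.27, MCOLN1 at -0.17, CLN3 at -0.11 and LAMP1 at -0.016. The causes were not tested.

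For the pairing of siRagC1 with siCtrl, which missed the minimum, 9 of 12 libraries correlated best with their own number (6 of 12 for siRagC2 with siCtrl). With siRagC1 the block added CLCN7 at 0.27 ± 0.07, CTNS at 0.24 ± 0.06 and LAMP2 at 0.17 ± 0.04 (edgeR, adjusted p = 0.0274, 0.0354 and 0.0273). With siRagC2 it gave 7 genes, SLC29A3 added, and 560 higher and 426 lower among all genes. It changed no other call of the 36 genes. Genes under 2 CPM, CLN3 and SPNS1, are limited by depth.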

Other observations

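Within each library, the CPM of CLCN7 was set against that of CLCN6, the related exchanger of late endosomes, a ratio chosen after the values were seen and not tested. It averaged 2.54 ± 0.26 with siRagC1 and 2.73 ± 0.24 with siRagC2, against 2.11 ± 0.23 with siCtrl (SD, n = 6 each). All 6 siRagC2 libraries (2.44 to 3.05) were above all 6 controls (1.67 to 2.35), and those of siRagC1 (2.12 to 2.86) overlapped them. The ratios of LAMP2 to LAMP1, MCOLN3 to MCOLN1, TPCN1 to TPCN2, LAPTM4A to LAPTM4B and SLC36A1 to SLC36A4 overlapped the controls with both siRNAs.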
